A study of Mus musculus with 4 samples.

Results

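Genes of amino acid breakdown and the urea cycle were examined in mouse liver by their transcript levels on 4 microarrays. The set was a list of 38 gene symbols, and each gene was read from the probe set, a group of probes for one transcript, that carried its symbol alone and had the highest mean over the 4 arrays. A probe set was found for 35 of the 38, and all 35 were among the 13308 genes, of 22180 named ones, that were kept by a filter on low values. Gls2, the liver glutaminase, and the serine dehydratase genes Sds and Sdsl were not analysed here.

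The liver is the main site where amino acids beyond the needs of protein synthesis are broken down. Aminotransferases move the amino group to glutamate, glutamate dehydrogenase and glutaminase release it as ammonia, and the urea cycle, which runs partly in the mitochondria and partly in the cytosol, turns ammonia and aspartate into urea. The carbon skeletons pass through a separate chain of enzymes for each amino acid and end in glucose, ketone bodies or the citric acid cycle. In the liver lobule most of the urea cycle and of histidine and serine breakdown lies near the portal vein, while ornithine aminotransferase lies with glutamine synthetase near the central vein.

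All mice were of the C57Bl6 strain, 16 weeks old, and carried both copies of Myd88 flanked by lox sites; Myd88 encodes the adaptor of Toll-like and interleukin-1 receptors. The groups were knockout mice with an added albumin-promoter Cre (ALB Cre MyD88 lox/lox) on a high-fat diet with 60% fat (LKO-HFD), wild-type mice (MyD88 lox/lox, no Cre) on the same diet (WT-HFD), knockout mice on a control diet with 9.4% fat (LKO-CT) and wild-type mice on that diet (WT-CT). The labels give the fat content of the diets and not their protein content, and no group carried Cre without the floxed gene. The RNA on an array was a pool from 4 to 5 mice selected for RNA quality, so each group had 1 array and the spread between mice was not measured.

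The values were log2 expression values with array medians between 3.53 and 3.56, and Pearson's r between any pair of arrays lay from 0.985 to 0.990 over the whole table. Albumin-promoter Cre acts in hepatocytes, and other liver cells keep Myd88. The log2 value of Myd88 was 6.23 in LKO-HFD against 6.44 in WT-HFD, and 5.91 in LKO-CT against 6.10 in WT-CT. These are differences of -0.21 and -0.19, and what sets their size was not tested. Of 10 hepatocyte markers 9 were measured, and their summed linear level was 65659 in LKO-HFD, 66411 in WT-HFD, 66439 in LKO-CT and 65233 in WT-CT. Transcripts of the exocrine pancreas differed between the arrays: the summed linear level of 13 markers was 7253 in LKO-HFD, 3117 in WT-HFD, 3463 in LKO-CT and 651 in WT-CT, with Prss2 alone below the filter. Skeletal muscle markers summed to 131, 296, 140 and 150 in the same order of groups, with 4 of 11 (Myh1, Myh4, Actn3 and Pvalb) below the filter.

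The amino acid genes were brightly measured, and their spread over the 4 arrays was close to that of all genes. The median of their mean log2 values was 10.14, against 4.99 over all genes kept, and 26 of the 35 lay above the 90th percentile of all genes (8.53). The distance between the highest and the lowest array was a median of 0.29 log2 over the 35 genes, against 0.31 over all genes, and it stayed under 0.2 log2 for 12 of them (34.3%), against 24.6% of all genes. Hgd, the homogentisate dioxygenase of tyrosine breakdown, had the smallest distance, 0.05, with log2 values of 11.25 in LKO-HFD, 11.21 in WT-HFD, 11.26 in LKO-CT and 11.24 in WT-CT. Cps1, the mitochondrial carbamoyl phosphate synthetase through which ammonia enters the urea cycle, had 12.71, 12.74, 12.74 and 12.69 in that order. Mat1a, which makes S-adenosylmethionine in the adult liver, had 12.42, 12.34, 12.45 and 12.35. The distances of Cps1 and Mat1a were 0.05 and 0.10, so these 3 genes were among the most level of the set. Prodh, the proline dehydrogenase, had the largest distance, 0.73 log2, followed by Oat with 0.65 and Gpt with 0.59. Bhmt, a betaine-homocysteine methyltransferase, was measured near the lower limit of the values kept (4.13, 4.03, 3.97 and 3.77 against a limit of 3.47), where differences are compressed, and Ass1 lay at 5.94, 5.80, 5.99 and 6.11. Both genes are known as abundant in mouse liver, so these low values go against that background, and whether the probe sets measure the transcripts was not tested. Differences of Bhmt and Ass1, and medians that include them, carry this limit.

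**Figure D1:**
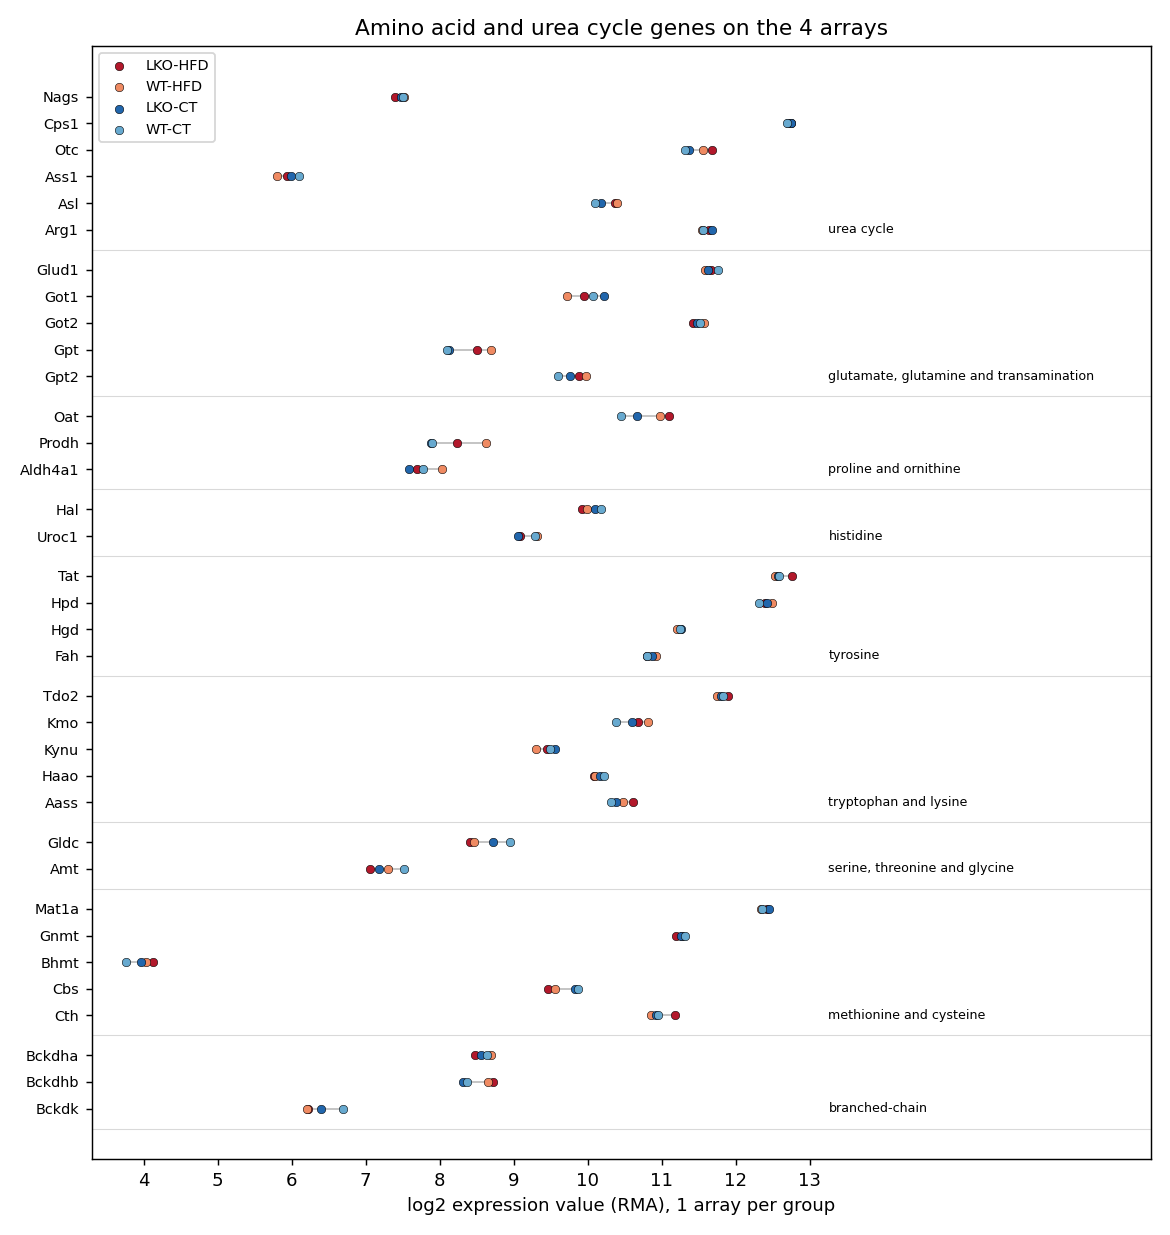
Log2 expression values of the 35 measured genes (x axis, log2 units), grouped by pathway, with 1 point for each of the 4 arrays (LKO-HFD, WT-HFD, LKO-CT, WT-CT) and a grey line from the lowest to the highest. For 12 of the 35 genes the 4 points lie within 0.2 log2, while Prodh, Oat and Gpt spread over 0.73, 0.65 and 0.59 log2; levels of different probe sets are not comparable with each other.

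The first comparison set high-fat against control diet in each genotype. On high-fat diet the enzymes that pass proline and ornithine to glutamate, the alanine aminotransferases and a subunit of the branched-chain ketoacid dehydrogenase had higher levels in both genotypes, and the glycine decarboxylase, cystathionine beta-synthase and the cytosolic aspartate aminotransferase had lower levels in both. The differences were small: 2 of the 35 genes reached 1.5-fold in wild type, both higher (background 1.68% of all genes higher and 2.52% lower; at 2-fold 0 genes, background 0.488% higher), and 0 in knockout (background 2.28% higher and 1.72% lower). The median difference of the 35 genes was 0.01 log2 in wild type and -0.03 in knockout, against -0.03 and 0.01 over all genes, and the sign was the same in both genotypes for 25 of 35 (71.4%), against 55.1% of all genes. In limma's fit over all 4 arrays, with diet and genotype as additive terms and Benjamini-Hochberg adjustment over all 13308 genes, 0 of the 35 passed an adjusted p of 0.05 for diet (background 0%; the smallest adjusted p among them was 0.368). At an unadjusted p under 0.05 in the same fit there were 7 of 35, 4 higher and 3 lower (background 9.3%, 4.33% higher and 4.97% lower). That fit has 1 residual degree of freedom, the difference between the diet responses of the 2 genotypes, so its errors describe these pooled arrays and not mice. Limma also draws the error of each gene towards a value common to all genes. That value had a weight of 4.63 degrees of freedom against this 1. The SE and p given below therefore rest more on the common value than on the gene's own arrays. Below, some genes have all high-fat arrays above or below all control arrays, or all knockout arrays above or below all wild-type arrays. The share of all genes with such an order was not counted, so a lack of overlap has no background here.

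The steps from proline and ornithine to glutamate had the largest differences. Prodh, the first enzyme of proline breakdown, had a log2 value of 8.23 in LKO-HFD against 7.89 in LKO-CT, and 8.62 in WT-HFD against 7.89 in WT-CT. Both high-fat arrays were above both control arrays, which differed from each other by 0.01, and Prodh was 65.5% higher with diet in wild type and 27.2% higher in knockout. In limma its diet effect was 0.54 log2 (SE 0.15, unadjusted p 0.0112, adjusted p 0.387). Oat, the mitochondrial ornithine aminotransferase, had 11.10 in LKO-HFD against 10.66 in LKO-CT, and 10.98 in WT-HFD against 10.45 in WT-CT. The diet groups did not overlap here either, with 35.8% more in knockout and 44.4% more in wild type (limma, 0.49 log2, SE 0.12, unadjusted p 0.00842, adjusted p 0.368). Aldh4a1, which oxidises the intermediate shared by proline and ornithine to glutamate, differed by 0.11 in knockout and 0.25 in wild type, and its diet groups overlapped, since LKO-HFD (7.69) lay below WT-CT (7.78).

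Among the aminotransferases the alanine enzymes were higher on high-fat diet and the cytosolic aspartate enzyme was lower. Gpt, the cytosolic alanine aminotransferase, had a log2 value of 8.50 in LKO-HFD against 8.12 in LKO-CT, and 8.69 in WT-HFD against 8.10 in WT-CT, which is 30.1% and 50.7% more. Both high-fat arrays lay above both control arrays (limma, diet effect 0.49 log2, SE 0.13, unadjusted p 0.0105, adjusted p 0.380). Gpt2, its mitochondrial counterpart, had 9.88 in LKO-HFD against 9.75 in LKO-CT, and 9.98 in WT-HFD against 9.60 in WT-CT, so the groups were in the same order with a smaller distance. Got1, the cytosolic aspartate aminotransferase, had 9.95 in LKO-HFD against 10.22 in LKO-CT, and 9.71 in WT-HFD against 10.07 in WT-CT. Both high-fat arrays were below both control arrays, with a difference of -16.9% in knockout and -21.6% in wild type (limma, -0.31 log2, SE 0.12, unadjusted p 0.0474, adjusted p 0.528). Got2, the mitochondrial isoenzyme, differed by -0.05 in knockout and 0.06 in wild type, and Glud1, glutamate dehydrogenase, by 0.03 and -0.17.

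In the urea cycle no gene reached 1.5-fold, and the 6 genes had a median diet difference of -0.04 log2 in knockout and 0.03 in wild type. Otc, ornithine transcarbamylase, had the largest difference that was shared: 11.68 in LKO-HFD against 11.37 in LKO-CT, and 11.56 in WT-HFD against 11.31 in WT-CT, or 24.0% and 18.3% more. Asl, argininosuccinate lyase, had 10.37 in LKO-HFD against 10.18 in LKO-CT, and 10.40 in WT-HFD against 10.10 in WT-CT, or 14.1% and 22.4% more. For both genes the high-fat arrays were above the control arrays, with unadjusted p of 0.0665 for Otc and 0.101 for Asl in limma. Cps1, Arg1, the arginase that releases urea, and Nags, which makes the activator of Cps1, were close to level, and the largest of their differences was -0.07, for Nags in knockout. Ass1, argininosuccinate synthetase, differed by -0.05 in knockout and -0.30 in wild type. The 7 measured genes known for periportal expression (Cps1, Ass1, Asl, Arg1, Otc, Hal and Uroc1) had medians of -0.03 in knockout and 0.02 in wild type, and 3 and 4 of them were higher, so they did not share a direction.

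Genes with lower levels on high-fat diet in both genotypes included enzymes of glycine breakdown and Cbs, an enzyme of cysteine synthesis. Gldc, the decarboxylase of the glycine cleavage system, had a log2 value of 8.41 in LKO-HFD against 8.72 in LKO-CT, and 8.46 in WT-HFD against 8.95 in WT-CT. Its high-fat arrays were below its control arrays without overlap, with a difference of -19.1% in knockout and -28.6% in wild type (limma, -0.40 log2, SE 0.13, unadjusted p 0.0224, adjusted p 0.448). Amt, the aminomethyltransferase of the same system, differed by -0.11 in knockout and -0.21 in wild type, and its diet groups overlapped. Cbs, the cystathionine beta-synthase that commits homocysteine to cysteine, had 9.47 in LKO-HFD against 9.82 in LKO-CT, and 9.56 in WT-HFD against 9.87 in WT-CT. Its groups did not overlap and the difference was close to equal in both genotypes, -21.7% in knockout and -19.0% in wild type (limma, -0.33 log2, SE 0.12, unadjusted p 0.0378, adjusted p 0.507). Cth, the cystathionine gamma-lyase that releases cysteine, differed by 0.26 in knockout and -0.10 in wild type, so it did not share the direction of Cbs. In the methionine cycle Mat1a differed by -0.03 in knockout and less than 0.01 in size in wild type, and Gnmt, the glycine N-methyltransferase, by -0.06 and -0.03, so both were close to level. Bhmt, at its low values, differed by 0.16 and 0.26.

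The branched-chain ketoacid dehydrogenase is the committed step in the breakdown of leucine, isoleucine and valine; it is switched off by phosphorylation through the kinase Bckdk and switched on by the phosphatase Ppm1k. Bckdhb, its beta subunit, had a log2 value of 8.72 in LKO-HFD against 8.31 in LKO-CT, and 8.66 in WT-HFD against 8.37 in WT-CT. The high-fat arrays were above the control arrays by 32.7% in knockout and 21.7% in wild type (limma, 0.35 log2, SE 0.12, unadjusted p 0.0336, adjusted p 0.500). Bckdha, the alpha subunit, differed by -0.07 and 0.06. Bckdk had 6.22 in LKO-HFD against 6.40 in LKO-CT, and 6.21 in WT-HFD against 6.69 in WT-CT. Both high-fat arrays were below both control arrays, with differences of -11.8% and -28.2% and an unadjusted p of 0.0545 in limma, and the control arrays themselves lay 0.29 apart.

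Of the other genes of this route, 15 were on a list of further amino acid breakdown enzymes, and they are grouped here after their values were seen. Ppm1k had 9.85 in LKO-HFD against 9.22 in LKO-CT, and 9.74 in WT-HFD against 9.12 in WT-CT, a difference of 0.63 and 0.62 log2. Dbt, the acyltransferase core of the dehydrogenase, had 9.79 against 9.18 in knockout and 9.69 against 9.07 in wild type, high-fat against control, a difference of 0.61 and 0.62. Both genes passed 1.5-fold in both genotypes, with limma diet effects of 0.63 (SE 0.12, unadjusted p 0.0025, adjusted p 0.277) and 0.62 (SE 0.12, unadjusted p 0.00267, adjusted p 0.280). Dld, the dihydrolipoamide dehydrogenase shared with other complexes, was higher by 0.45 in knockout and 0.22 in wild type, and Acadsb, an acyl-CoA dehydrogenase of isoleucine breakdown, by 0.46 and 0.34. Over the 17 genes of the route other than Bckdk, with Bckdha and Bckdhb included, 14 were higher on high-fat diet in knockout and 14 in wild type, against 52.2% and 44.9% of all genes, and the median difference was 0.22 in each genotype.

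**Figure D2:**
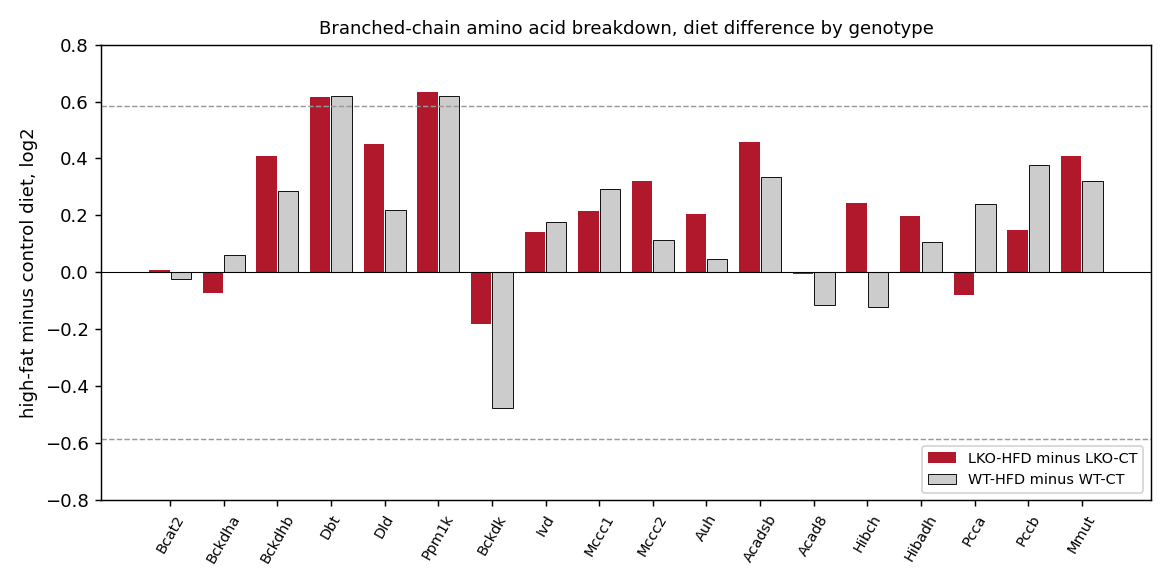
Diet difference (high-fat minus control, y axis, log2 units) of 18 genes of branched-chain amino acid breakdown, with 1 red bar for knockout and 1 grey bar for wild type, each the difference of 2 arrays without replicate error; dashed lines mark 1.5-fold. Dbt and Ppm1k pass the upper line in both genotypes, and Bckdk is below 0 in both (-0.18 in knockout and -0.48 in wild type).

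In the remaining chains no gene reached 1.5-fold with diet, and the largest difference was 0.44 log2, for Kmo of tryptophan breakdown in wild type. In tyrosine breakdown Tat, the tyrosine aminotransferase, differed by 0.19 in knockout and -0.07 in wild type, Hpd by -0.03 and 0.17, Fah by -0.06 and 0.13 and Hgd by -0.01 and -0.03. Of these 4 genes Hgd alone had the same sign in both genotypes. Hpd makes homogentisate, the substrate of Hgd, and Fah is the last enzyme of the chain. In tryptophan breakdown Kmo, the kynurenine monooxygenase, had 10.68 in LKO-HFD against 10.60 in LKO-CT, and 10.82 in WT-HFD against 10.38 in WT-CT, a difference of 0.07 and 0.44. Tdo2, the dioxygenase that opens the pathway, differed by 0.10 and -0.08, Kynu, the kynureninase, by -0.12 and -0.19 and Haao, a dioxygenase further down the route to NAD, by -0.08 and -0.11. Aass, the first enzyme of lysine breakdown, was higher by 0.24 and 0.17. In histidine breakdown Hal, the histidine ammonia-lyase, differed by -0.17 and -0.19 and Uroc1 by 0.02 in each genotype.

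**Figure D3:**
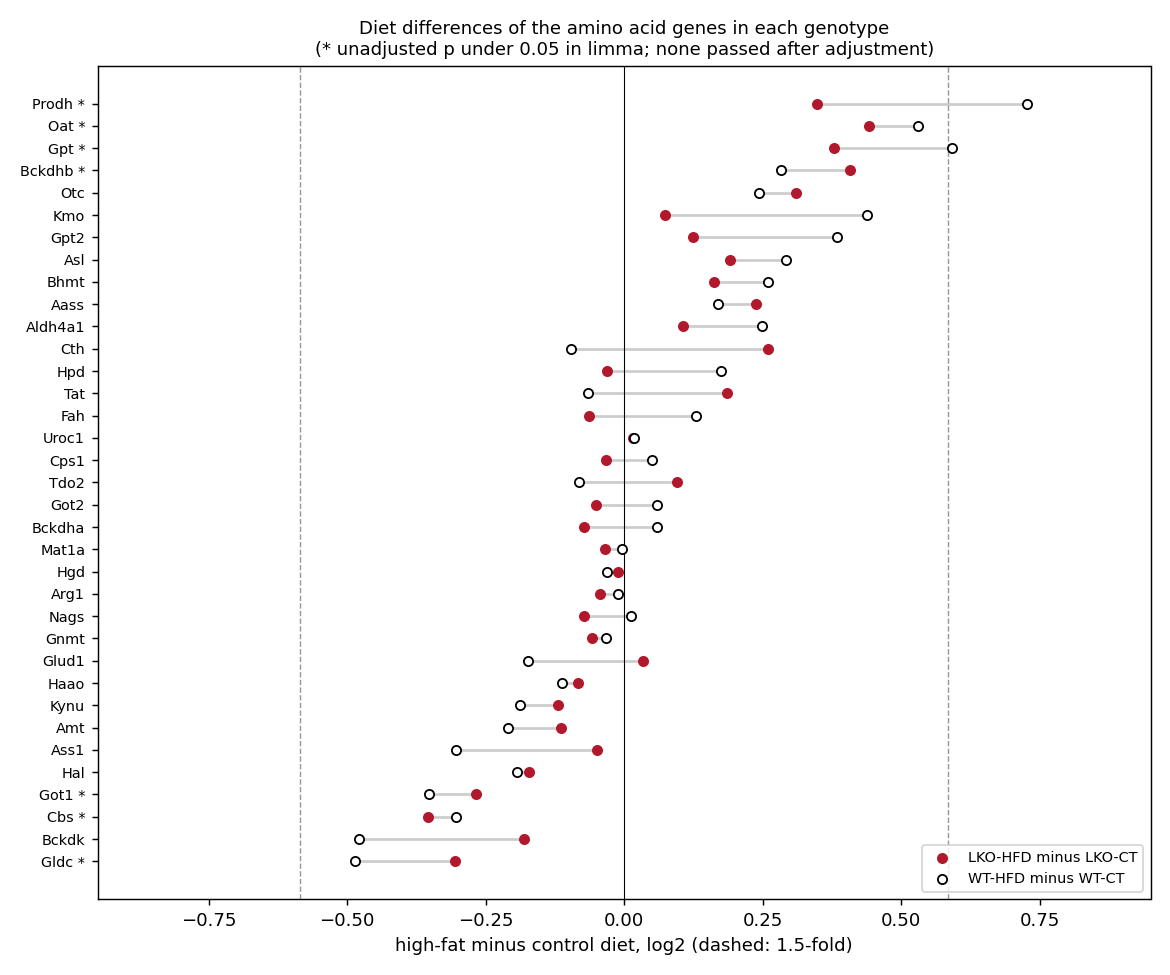
Diet difference (high-fat minus control, x axis, log2 units) of the 35 genes in knockout (red) and wild type (open circles), ordered by limma's additive diet effect, with dashed lines at 1.5-fold. Each point is the difference of 2 arrays; 7 genes marked with an asterisk had an unadjusted p under 0.05 and 0 passed after adjustment, and Prodh and Gpt in wild type are the 2 points beyond the line.

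Transcripts of other tissues moved with diet beside these values. Each of the 12 pancreas markers kept had a higher value with high-fat feeding, whichever the genotype, and the median differences were 1.06 in knockout and 2.22 in wild type. The 7 muscle markers kept had a median diet difference of -0.12 in knockout and 0.99 in wild type. In knockout the summed linear level was 131 in LKO-HFD against 140 in LKO-CT for muscle and 7253 against 3463 for pancreas, and between the same arrays Prodh, Oat, Gpt and Bckdhb differed by 0.35, 0.44, 0.38 and 0.41. The 8 markers of Kupffer cells, the macrophages of the liver, had medians of -0.11 in knockout and -0.38 in wild type, with 5 and 6 of the 8 lower. The other 3 and 2 were higher, against 52.2% and 44.9% of all genes. The 4 with the largest difference between 2 arrays were Marco (0.39 in knockout and -0.72 in wild type), Adgre1 (0.18 and -0.63), C1qa (-0.64 and -0.42) and Timd4 (-0.12 and -0.54). The part of pancreas, muscle and Kupffer cell transcripts in the diet differences was not tested. The 9 hepatocyte markers had medians of -0.05 and 0.00. In whole liver, fewer cells of a type and less RNA per cell cannot be told apart.

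Of the 7 genes with an unadjusted p under 0.05 for diet, 6 had an entry in RefSeq's promoter sequences for build GRCm38.p6, as did 28 of the 38 listed genes. The 250 bases before the annotated start are shown because these genes had the smallest unadjusted p for diet, the first 3 higher and the last 3 lower on high-fat diet. They lie at chr7:132576399-132576648 (minus strand), chr16:18089191-18089440 (minus strand), chr9:83924887-83925136 (plus strand), chr19:43524606-43524855 (minus strand), chr19:30175442-30175691 (minus strand) and chr17:31637206-31637455 (minus strand), and are written 5′ to 3′ on the strand of the gene. Capitals mark matches to any of 7 motifs.
Oat: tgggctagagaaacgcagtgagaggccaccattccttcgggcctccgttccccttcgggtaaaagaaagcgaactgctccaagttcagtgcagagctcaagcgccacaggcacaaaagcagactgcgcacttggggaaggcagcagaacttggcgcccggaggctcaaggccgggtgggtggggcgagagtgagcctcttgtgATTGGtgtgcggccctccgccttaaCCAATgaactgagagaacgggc
Prodh: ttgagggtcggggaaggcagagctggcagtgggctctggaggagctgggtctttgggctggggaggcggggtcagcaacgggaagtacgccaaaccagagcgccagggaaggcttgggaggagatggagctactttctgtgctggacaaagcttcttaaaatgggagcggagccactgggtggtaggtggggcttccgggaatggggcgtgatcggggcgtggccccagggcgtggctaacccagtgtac
Bckdhb: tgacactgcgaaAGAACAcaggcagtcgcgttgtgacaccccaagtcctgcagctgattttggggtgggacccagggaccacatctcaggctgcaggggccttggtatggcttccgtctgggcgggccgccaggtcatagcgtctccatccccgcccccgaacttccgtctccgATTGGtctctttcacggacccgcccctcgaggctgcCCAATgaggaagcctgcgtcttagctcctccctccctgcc
Got1: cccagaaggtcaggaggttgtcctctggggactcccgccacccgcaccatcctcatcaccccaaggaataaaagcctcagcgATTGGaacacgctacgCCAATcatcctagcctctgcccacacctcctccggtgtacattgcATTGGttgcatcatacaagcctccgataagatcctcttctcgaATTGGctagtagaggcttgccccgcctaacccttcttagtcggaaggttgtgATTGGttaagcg
Gldc: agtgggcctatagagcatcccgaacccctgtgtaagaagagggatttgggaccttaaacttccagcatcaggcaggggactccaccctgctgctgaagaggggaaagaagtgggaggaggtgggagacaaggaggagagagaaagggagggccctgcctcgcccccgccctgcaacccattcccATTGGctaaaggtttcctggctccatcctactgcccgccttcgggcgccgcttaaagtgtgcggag
Cbs: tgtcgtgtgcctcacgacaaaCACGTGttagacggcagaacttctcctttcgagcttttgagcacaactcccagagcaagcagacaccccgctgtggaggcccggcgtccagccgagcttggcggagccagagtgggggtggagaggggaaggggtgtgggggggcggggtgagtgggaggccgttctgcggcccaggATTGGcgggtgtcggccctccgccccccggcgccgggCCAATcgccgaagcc
The motifs were searched on both strands: CCAAT (the CCAAT box), CACGTG (an E-box, bound by clock factors), TGACG (the core of a cyclic AMP response element), TGTTCT (the core of a glucocorticoid response element), TTGCNNAA (a C/EBP core), TGNACTTTG (a form of the HNF4 site) and TATAAA (the TATA box). CCAAT was added after the sequences had been read. It was found in Oat, Bckdhb, Got1, Gldc and Cbs, with 5 matches in Got1, and not in Prodh; 33.8% of 32851 promoters of the same length and 16 of 29 promoters of listed genes (55.2%) hold it. CACGTG was found in Cbs, from 229 to 224 bases before the start, and in 6.02% of all promoters. TGTTCT was found in Bckdhb as its reverse complement AGAACA, 238 to 233 bases before the start, and in 16.1% of all promoters. The other 4 motifs had 0 matches in these 6 windows, against 17.8% of all promoters for TGACG, 9.56% for TTGCNNAA, 1.19% for TGNACTTTG and 12.4% for TATAAA. Genes that were higher and genes that were lower on high-fat diet both held CCAAT.

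The second comparison set knockout against wild type on each diet. No difference of 1.5-fold was measured in any of the 35 genes, on high-fat diet (background 2.1% of all genes higher and 1.01% lower) or on control diet (background 0.902% higher and 0.864% lower). The median difference of the 35 genes was -0.03 log2 on high-fat diet and -0.02 on control diet, against 0.02 and -0.02 over all genes, and the sign was the same on both diets for 21 of 35 (60%), against 49.9% of all genes. In limma 0 of the 35 passed for genotype after adjustment (background 0%; smallest adjusted p 0.975), and 0 had an unadjusted p under 0.05 (background 4.26%).

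Amt had the largest genotype effect that was shared by both diets. It had a log2 value of 7.06 in LKO-HFD against 7.30 in WT-HFD, and 7.17 in LKO-CT against 7.51 in WT-CT, so both knockout arrays were below both wild-type arrays, with differences of -15.6% and -21.0% (limma, -0.29 log2, SE 0.12, unadjusted p 0.0574, adjusted p 0.975). Uroc1, the urocanate hydratase of histidine breakdown, had 9.08 in LKO-HFD against 9.31 in WT-HFD, and 9.06 in LKO-CT against 9.29 in WT-CT. Its difference was -0.23 on each diet with no overlap of the genotypes, and its unadjusted p in limma was 0.110. Aldh4a1 had 7.69 in LKO-HFD against 8.02 in WT-HFD, and 7.58 in LKO-CT against 7.78 in WT-CT, a difference of -20.7% and -12.4% (limma, unadjusted p 0.0826). Got1 was higher in knockout, by 0.24 on high-fat diet and 0.15 on control diet.

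The urea cycle genes differed between genotypes by no more than 0.14 log2 on either diet. Otc differed by 0.12 on high-fat diet and 0.05 on control diet, Arg1 by 0.09 and 0.12, Cps1 by -0.03 and 0.05, Asl by -0.02 and 0.08, Nags by -0.12 and -0.04 and Ass1 by 0.14 and -0.12. Of the acute phase genes, which the liver induces in inflammation, 20 of 20 measured were higher in knockout on control diet, against 46.6% of all genes. Their median there was 0.58 log2. On high-fat diet 13 of the 20 were higher, against 54.0% of all genes, with a median of 0.12. The 35 amino acid genes lay between -0.34 and 0.22 on control diet and between -0.39 and 0.33 on high-fat diet. The 12 pancreas markers were higher in knockout too, by medians of 1.19 on high-fat diet and 2.42 on control diet, and their part in the genotype differences of the amino acid genes was not tested.

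**Figure D4:**
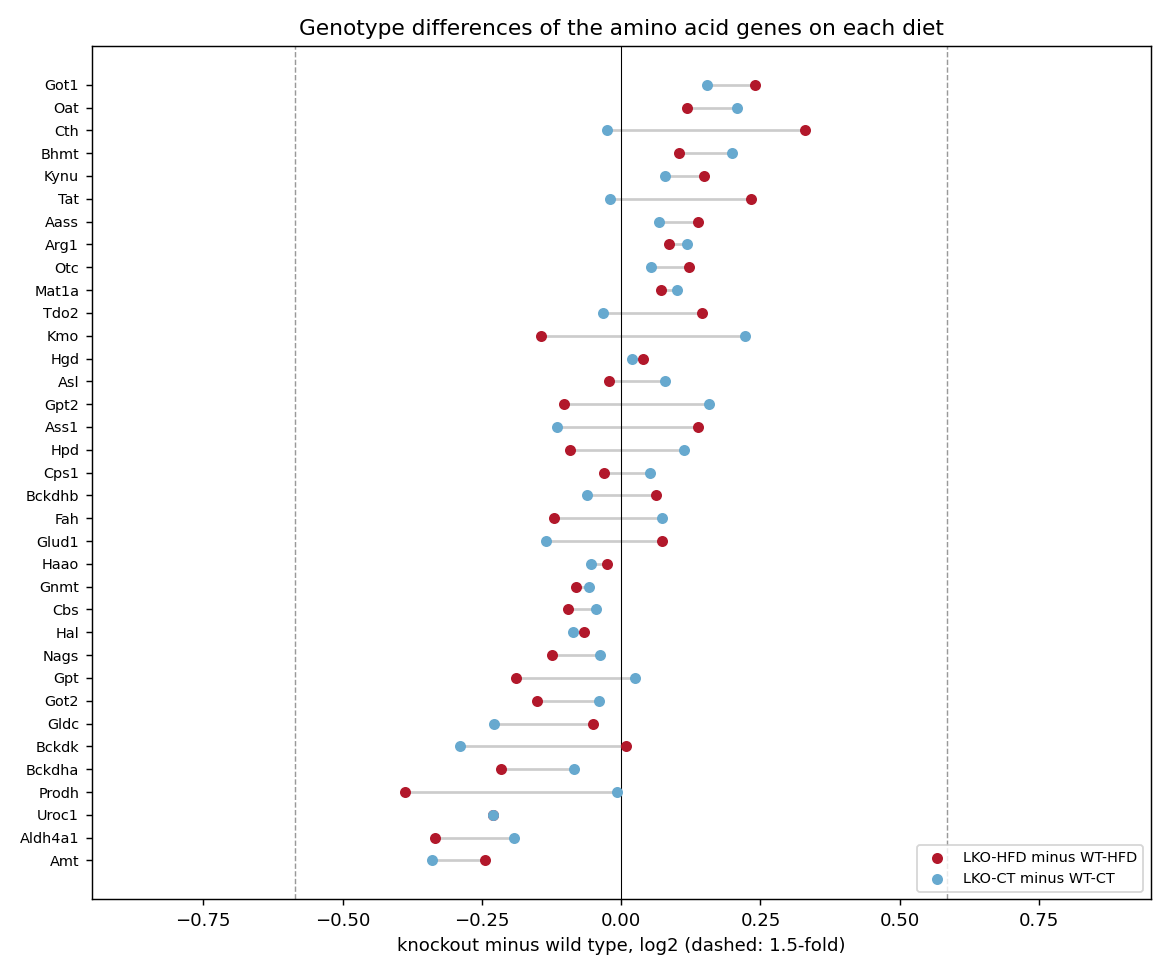
Genotype difference (knockout minus wild type, x axis, log2 units) of the 35 genes on high-fat diet (dark red) and control diet (light blue), ordered by limma's additive genotype effect, with dashed lines at 1.5-fold. Each point is the difference of 2 arrays, and all points lie between the lines, from -0.39 for Prodh to 0.33 for Cth, both on high-fat diet.

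The third comparison asked whether the response to diet depended on genotype, as the diet difference in knockout minus that in wild type. With 1 array per group it has no test. It reached 1.5-fold for 0 of the 35 genes (background 5.12% of all genes positive and 3.11% negative) and had a median of -0.02 log2, against 0.04 over all genes. The lowest values were -0.38 for Prodh and -0.37 for Kmo, whose diet differences were positive in both genotypes and smaller in knockout. The highest were 0.36 for Cth and 0.30 for Bckdk, whose diet difference was negative in both genotypes and smaller in size in knockout. Cth, the cystathionine gamma-lyase that releases cysteine, had 11.18 in LKO-HFD against 10.92 in LKO-CT, and 10.85 in WT-HFD against 10.95 in WT-CT, so it was high on the LKO-HFD array and close to level on the other 3. The 3 genes of the proline and ornithine step had negative values, from -0.38 to -0.09.

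Other enzymes of amino acid breakdown, on a list of 49 of which 46 were measured, were more often higher than lower on high-fat diet: 37 of 46 in knockout and 33 of 46 in wild type, against 52.2% and 44.9% of all genes, with medians of 0.15 and 0.20 log2. None passed limma's test for diet after adjustment (smallest adjusted p 0.272), and at an unadjusted p under 0.05 there were 10 higher and 1 lower (background 4.33% higher and 4.97% lower). Past 1.5-fold, Dbt and Ppm1k were higher and Csad lower in knockout, and Ido2, Agxt2, Dbt and Ppm1k were higher and Csad lower in wild type. Ido2, a tryptophan dioxygenase related to the indoleamine enzyme Ido1, was higher by 0.32 in knockout and 0.80 in wild type, and Agxt2, a mitochondrial aminotransferase, by 0.36 and 0.64. Csad, which makes taurine from cysteine, differed by -1.46 and -3.61. Acmsd, which diverts a tryptophan product away from NAD synthesis, was higher in knockout than in wild type by 0.86 on high-fat diet and 0.32 on control diet. Its unadjusted p for genotype was 0.0135 and its adjusted p 0.975 in limma.

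A list for ammonia, glutamine and amino acid transport, which also holds the enzyme glutamine synthetase, was measured for 15 of 17 genes. Of these 0 passed limma's test for diet after adjustment, and 3 had an unadjusted p under 0.05, 2 higher and 1 lower (same background). Slc25a22, a mitochondrial glutamate carrier, had a log2 value of 7.73 in LKO-HFD against 8.61 in LKO-CT, and 7.87 in WT-HFD against 8.65 in WT-CT. It was lower on high-fat diet past 1.5-fold in both genotypes, with differences of -0.88 and -0.78 (limma, -0.83 log2, SE 0.12, unadjusted p 0.000662, adjusted p 0.205). Slc1a2, a glutamate transporter of pericentral hepatocytes, was higher by 0.46 in knockout and 0.64 in wild type, and Slc43a1, a transporter of large neutral amino acids, by 0.34 and 0.79 at low values (between 3.89 and 4.68). Slc3a1, a subunit of a transporter for cystine and basic amino acids, had 9.46 in LKO-HFD against 9.49 in WT-HFD, and 10.02 in LKO-CT against 9.36 in WT-CT.

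Regulators of these enzymes were measured for 19 of 20 genes, and 0 passed for diet after adjustment (limma, smallest adjusted p 0.203). Fgf21, a liver hormone of fasting and of low-protein diets, had 5.14 in LKO-HFD against 6.32 in LKO-CT, and 5.16 in WT-HFD against 7.32 in WT-CT. Ppargc1a, a coactivator of gluconeogenesis and amino acid enzymes, differed by -0.02 in knockout and -0.77 in wild type. The receptor for glucagon, Gcgr, differed by 0.01 and -0.04, and Klf15, a transcription factor that drives amino acid breakdown in fasting, by 0.27 and -0.07. Asns, the asparagine synthetase, differed between the diets by -0.44 and -0.54 at low values (between 3.59 and 4.20) and had an unadjusted p of 0.00823 and an adjusted p of 0.368 in limma. Of the 5 measured genes of amino acid synthesis, Asns alone had an unadjusted p under 0.05 for diet.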

How the data were processed

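Pooled liver RNA of 4 groups was measured on 1 Affymetrix array each, and the labels' genotype and diet set the groups. Each deposited number is a log2 level of a probe set, which the authors computed by RMA; the submitters' processing notes name Affymetrix Expression Console. The probe set library is not given in the sources used here. This method normalises by quantiles and compresses differences of dim probe sets. Signal over background is unknown and no batch was examined. The number of arrays limits the precision.

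Of 41345 probe sets, 23521 had 1 gene symbol in the platform annotation, 1814 several and 16010 none, and genes were named only from the first. By Entrez identifier 23328 were found in the GRCm38.p6 RefSeq table, which changed 0 symbols. Each gene was read from its probe set with the highest mean, and genes with a mean log2 below the 40th percentile (3.47) were left out. Differences are subtractions of log2 values of single arrays, with no replicate check and no p-value; genes were counted at 1.5-fold. Limma 3.58.1 (R 4.3.3, lmFit with diet and genotype, eBayes, Benjamini-Hochberg at 0.05) gave the p-values. Simulated data with independent noise and no diet by genotype effect were used to check that it returned the size of planted diet effects. This is no check of the p-values of these arrays. Python 3.11.15, pandas 2.3.3, NumPy 2.4.6 and matplotlib 3.10.9 were used otherwise.

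The genes, lists and tests were chosen with earlier results of these data known. All listed genes could be named, with Myd88 and up to 4 genes of every other list by the largest difference between 2 arrays; Gcgr, Klf15, Ppm1k, Dbt, Dld, Acadsb and Fbp1 were named beyond this rule after their values were seen. Median centring of the limma fit was added after seeing the data. Alternatives were cyclic loess, median centring, the mean of a gene's probe sets, other filters, 2-fold and a trended prior.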

Additional observations from a re-analysis of the deposited data

Results flagged for a closer look

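These genes are given because a difference had opposite signs in the groups compared; with 1 array per group none of this was tested, and most values are small. The diet difference had opposite signs in the 2 genotypes for 10 of the 35 genes; the sign was the same for 71.4% of the 35 and for 55.1% of all genes, so opposite signs were less common here than over all genes. As the diet difference in knockout minus that in wild type, Cth had 0.36, Tat 0.25, Glud1 0.21 and Tdo2 0.18, with a positive difference in knockout and a negative one in wild type. The value was -0.21 for Hpd, -0.19 for Fah, -0.13 for Bckdha, -0.11 for Got2, -0.085 for Nags and -0.082 for Cps1, where the signs were the other way round. For Nags this depended on the probe set: with the mean of its probe sets the diet difference was 0.10 in knockout and 0.14 in wild type.

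The genotype difference had opposite signs on the 2 diets for 14 genes, and 7 of these, Cps1, Glud1, Tat, Hpd, Fah, Tdo2 and Cth, are among the 10. The sign was the same for 60% of the 35 and for 49.9% of all genes, so this count too is not above the background. As the genotype difference on high-fat diet minus that on control diet, which is the same quantity, the others had 0.30 for Bckdk, 0.25 for Ass1 and 0.12 for Bckdhb, and -0.37 for Kmo, -0.26 for Gpt2, -0.21 for Gpt and -0.10 for Asl.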

How the results depend on the processing

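The medians of the 35 genes, all near 0, moved by less than 0.1 log2 in all 5 comparisons under cyclic loess, median centring, the mean of probe sets, no filter and the 60th percentile filter. Of 870 recomputed differences of single genes 863 moved by less than 0.1 log2. The other 7 were of Nags and Got2, whose additional dim probe sets entered the mean, and of Amt and Bckdk under cyclic loess; the cause of these 2 was not tested. Most of the 870 could not move by design. The filter settings leave the values of single genes as they were, and the mean of probe sets can change only Nags and Got2. Median centring shifts all genes by the same amount in a comparison. The count of 863 is therefore no measure of robustness. At 2-fold, 0 genes passed for diet in wild type in place of 2. For diet over both genotypes limma called 0 of all genes, but 70 after cyclic loess (41 higher and 29 lower) and 5 after median centring (3 higher and 2 lower), which was chosen for this fit after seeing the data, and 0 of the 35 genes in each of these fits. For genotype it called 3 after cyclic loess, all 3 higher and none of the 35. At an unadjusted p under 0.05, 1 of the 35 appeared for genotype after cyclic loess and 1 without a filter, in place of 0; the cause was not tested. No paired analysis was possible because each group has 1 array, and no array could be left out of a group. Pooling and 1 array per group limit all results, and Bhmt, at values near the filter, is measured least well.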

Other observations

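Gluconeogenesis, which takes up the carbon of many amino acids, was measured for 5 of 5 listed genes, and 4 of the 5 were lower on high-fat diet in each genotype. The other 1 was higher, against 52.2% of all genes in knockout and 44.9% in wild type, and 5 genes are few for such a count. Pck2, among the 4, was measured at low values (between 3.81 and 4.30 against a limit of 3.47). Pck1, the phosphoenolpyruvate carboxykinase, had a log2 value of 11.90 in LKO-HFD against 12.18 in LKO-CT, and 11.90 in WT-HFD against 12.22 in WT-CT. G6pc, the glucose-6-phosphatase, had 11.42 in LKO-HFD against 11.64 in LKO-CT, and 11.16 in WT-HFD against 11.72 in WT-CT. For both genes the high-fat arrays lay below the control arrays, and in limma their unadjusted p for diet were 0.0495 and 0.0328 (adjusted p 0.535 and 0.497). Fbp1, the fructose bisphosphatase, differed by 0.02 in knockout and 0.04 in wild type.

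Nags and Got2 each had an additional, dimmer probe set that was used only in the alternative with the mean of a gene's probe sets. The one of Got2 had log2 values of 4.76 in LKO-HFD, 5.17 in WT-HFD, 4.94 in LKO-CT and 4.91 in WT-CT, and the one of Nags 4.89, 5.00, 4.62 and 4.73 in the same order of groups.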
